A study of Mus musculus with 8 samples.

Results

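The loci described here are 43 mouse piRNA loci that carry the name of a gene and give moderate amounts of piRNA in wild-type testis. They were selected on their wild-type small RNA values: the mean of both Exd2+/+ small RNA libraries, each scaled to 1000000 counts over the deposited table, had to reach 50 counts. The deposited tables hold 208 piRNA loci; 114 take their name from a gene and 94 from a chromosome band. Of the gene-named loci, 55 reached the threshold and 12 of these were left out by name, as were 4 more below it. The 16 names were set with the genotype differences of these data known, so both the wild-type level and, through the names left out, the genotype difference bear on which 43 loci remain. Counts over the 43 loci are therefore descriptions.

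The study asked whether removing part of Exd2 alters piRNA production. Exd2 encodes a protein with an exonuclease domain. In Exd2∆ mice, Cas9 and a guide RNA were used in embryos of the C57BL6 background to cut away the end of exon 2 together with some of the intron that follows it. Testes of adult Exd2∆ and Exd2+/+ mice were each profiled by small RNA-seq and by rRNA-depleted, directional long RNA-seq. Each genotype has 2 replicates in each assay, described as biological in the study's design text. Both genotypes are whole testes, and the labels name no other allele or treatment. The labels do not say whether the Exd2∆ mice descend from 1 founder or several, nor whether the small and long RNA of a given number came from the same animal.

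PIWI-interacting RNAs (piRNAs) are small RNAs of germ cells that are cut from long single-stranded transcripts, are loaded into PIWI proteins, and guide them to transposon and other transcripts. In the mouse testis most piRNAs of meiotic and later germ cells come from long intergenic transcripts, many of them under the transcription factor A-MYB, while a smaller amount is cut from protein-coding transcripts and mostly from their 3′ untranslated part. At such a locus the small RNA assay counts piRNAs, whereas the long RNA assay counts both the transcripts that feed piRNA production and the ordinary mRNA of the gene.

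Of the 43 loci, 24 start within 150 bp of a RefSeq transcript start of the gene they are named for, on the same strand. The 250 bases before that start (RefSeq, build GRCm38.p6) are shown for the loci on which the comparisons below turn: the largest rise and the largest fall in piRNA counts, further loci with large differences, and the most abundant locus for which such a window was matched. The locus with the highest piRNA level of all, pi-Tmem194.3, is named only. Capitals mark matches, on either strand, to 1 of 4 motifs, and a match on the other strand appears as its reverse complement. The letters CAACTG are the core of the motif of MYB factors. NF-Y binds the letters CCAAT in many promoters. The TATA box was searched as TATAAA. The E-box of basic helix-loop-helix factors was searched as CACGTG. The first sequence is that of the largest rise, the second that of the largest fall.
pi-Exoc8.2, chr8:124897706-124897955, minus strand: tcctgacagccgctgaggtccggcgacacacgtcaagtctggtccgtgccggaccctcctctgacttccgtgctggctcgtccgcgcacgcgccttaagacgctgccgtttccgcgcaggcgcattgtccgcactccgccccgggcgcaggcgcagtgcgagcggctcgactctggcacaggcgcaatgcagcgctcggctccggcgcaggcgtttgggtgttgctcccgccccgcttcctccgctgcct
pi-Zdhhc23.2, chr16:43979810-43980059, minus strand: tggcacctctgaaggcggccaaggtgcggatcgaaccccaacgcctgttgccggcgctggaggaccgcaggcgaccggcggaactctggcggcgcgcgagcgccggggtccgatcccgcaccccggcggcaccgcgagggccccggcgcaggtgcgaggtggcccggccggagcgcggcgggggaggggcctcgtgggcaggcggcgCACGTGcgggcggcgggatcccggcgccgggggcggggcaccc
pi-Fth1.1, chr19:9982396-9982645, plus strand: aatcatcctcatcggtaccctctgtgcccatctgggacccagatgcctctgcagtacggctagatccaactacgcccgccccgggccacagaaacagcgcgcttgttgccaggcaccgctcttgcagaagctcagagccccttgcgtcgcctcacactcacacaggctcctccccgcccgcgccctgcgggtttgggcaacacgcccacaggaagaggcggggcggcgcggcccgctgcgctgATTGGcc
pi-Mlec.1, chr5:115158177-115158426, minus strand: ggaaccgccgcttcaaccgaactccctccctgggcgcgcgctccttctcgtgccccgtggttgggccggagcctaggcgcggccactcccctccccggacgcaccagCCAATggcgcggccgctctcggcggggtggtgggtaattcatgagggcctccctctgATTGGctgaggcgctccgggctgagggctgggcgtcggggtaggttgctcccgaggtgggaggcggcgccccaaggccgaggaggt
pi-Strbp.1, chr2:37703346-37703595, minus strand: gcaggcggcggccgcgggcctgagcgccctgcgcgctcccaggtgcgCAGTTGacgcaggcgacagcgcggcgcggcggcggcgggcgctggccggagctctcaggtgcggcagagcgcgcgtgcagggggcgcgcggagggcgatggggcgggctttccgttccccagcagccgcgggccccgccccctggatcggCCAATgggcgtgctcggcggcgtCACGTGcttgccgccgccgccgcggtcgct
pi-Zfp382.1, chr7:30121682-30121931, plus strand: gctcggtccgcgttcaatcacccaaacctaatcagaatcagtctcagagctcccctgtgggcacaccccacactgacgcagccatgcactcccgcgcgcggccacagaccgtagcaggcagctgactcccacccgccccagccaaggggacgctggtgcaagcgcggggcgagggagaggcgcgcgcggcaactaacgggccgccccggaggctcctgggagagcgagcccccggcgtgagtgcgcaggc

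These windows were rich in G and C, at 70.4% for Exoc8, 80.8% for Zdhhc23, 66.8% for Fth1, 72.4% for Mlec, 80.4% for Strbp and 70.0% for Zfp382. The median over the 24 windows was 66.4% (range 43.6% to 80.8%), against 52.4% over all 32851 RefSeq windows. Motifs were looked for from 250 bases before to 50 bases after the start. The MYB letters were present in 4 of the 24 windows (16.7%) and in 13.7% of all RefSeq windows. The NF-Y letters were present in 12 of the 24 (50.0%) and in 37.4% of all. The gene-named loci under the threshold had the same 50.0% (16 of 32 windows), and they were present in 1 of 8 windows of the loci left out by name. The remaining letters were rarer, the E-box in 3 of the 24 (12.5%) and in 7.15% of all, and the TATA letters in 0 of the 24 and in 13.6% of all. In the printed windows the NF-Y match of Fth1 lies 7 bases before the start, those of Mlec 143 and 86 bases before it, and the E-box match of Zdhhc23 43 bases before it. Strbp holds a MYB, an NF-Y and an E-box match at 203, 53 and 30 bases before the start. These are letters in a window, and the matches were not compared with the genotype differences.

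In all, the small RNA libraries held between 28408830 and 37660202 estimated counts over the 208 loci, and the long RNA libraries between 960909 and 1842625. Among the 43 loci the lowest value in any library was 573 counts in small RNA (counting error 4.18%) and 175 in long RNA (7.56%). Molecular identifiers are not mentioned in the labels, and errors of this kind cover counting alone. Levels below are CPM, estimated counts scaled to 1000000 over the 208 loci of each library, and are not divided by length unless stated. Values are given for replicates 1 and 2, and where pairs of values are set against each other without a label, the Exd2+/+ pair comes first. A change shared by all 208 loci would not show. Exd2 lies outside the 208 loci, so the genotype labels were not checked on its level, and markers of testis cell types were not analysed here. In whole testis, fewer cells of a type and less RNA per cell cannot be told apart.

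The 43 loci took a small share of testis piRNA counts and a larger share of the long RNA. Their part of the small RNA counts was 2.22% ± 0.0499 (SD, n = 2) in Exd2+/+ and 2.30% ± 0.0992 in Exd2∆. Of the long RNA counts it was 15.1% ± 0.0546 in Exd2+/+ and 15.6% ± 0.946 in Exd2∆. The genotypes overlapped within the range of their replicates in both assays. Among the 114 gene-named loci, the 43 accounted for 65.8% ± 0.279 of small RNA in Exd2+/+ and 73.8% ± 0.607 in Exd2∆. The loci left out by name, which are among the 114, had a smaller part of all small RNA in Exd2∆, at 0.718% against 1.07%. Their names were set with the genotype differences known. The rise from 65.8% to 73.8% thus depends on the choice of loci and is not read as a genotype result.

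Within the 43 loci, piRNA counts were concentrated in a few. The wild-type mean exceeded 1000 CPM at 6 loci, lay between 100 and 1000 at 25 and under 100 at 12. The first 6 accounted for 59.6% ± 0.221 of the piRNA counts of all 43 in Exd2+/+ and 55.5% ± 2.04 in Exd2∆. Just inside the threshold were Cramp1l at 53.2, D10Wsu102e at 53.6 and Fth1 at 54.0 CPM. Just outside it were Atxn1l at 46.6, Tfcp2l1 at 35.0 and Smcr8 at 34.1. Both Exd2+/+ libraries were above 50 at 42 of the 43 loci, the exception being Uhmk1 with 47.1 in replicate 2.

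**Figure D1:**
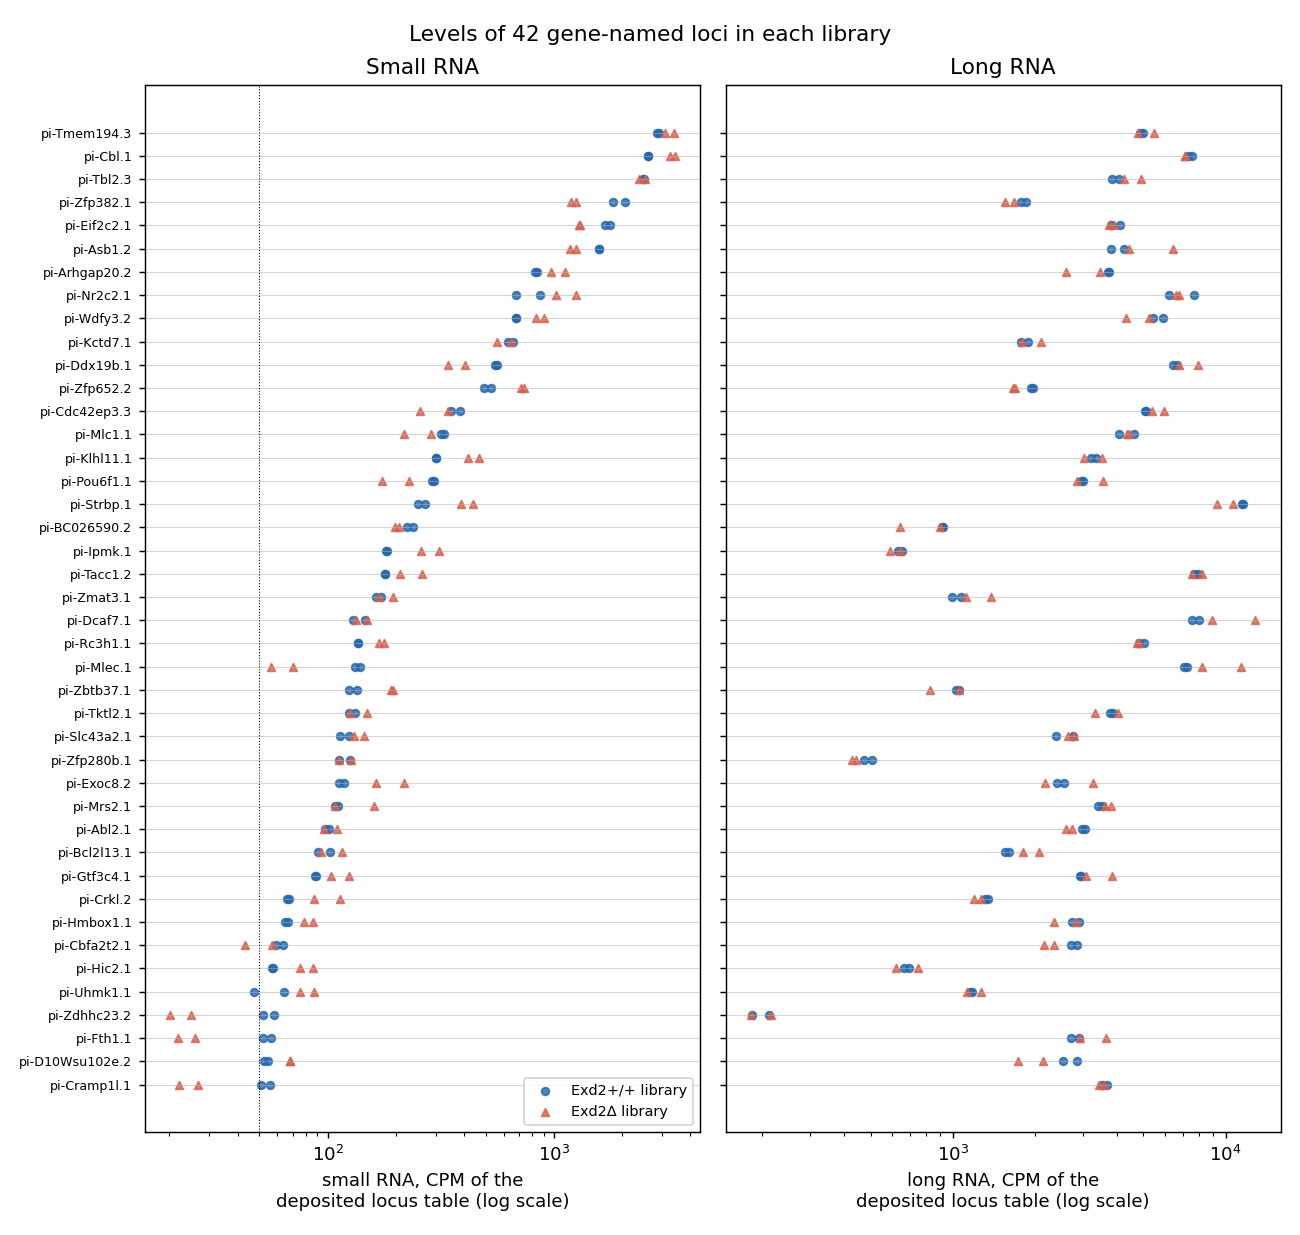
CPM (estimated counts scaled to 1000000 over the 208 loci) at 42 of the 43 loci, in small RNA (left) and long RNA (right), on log axes. Each circle is an Exd2+/+ library and each triangle an Exd2∆ library (2 each), loci are ordered by wild-type small RNA level, and the dotted line is the threshold of 50; the triangles of Zdhhc23, Fth1 and Cramp1l lie below it, while their long RNA symbols lie close together.

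The 6 most abundant loci lie over genes of varied function, with no function common to all 6. pi-Tmem194.3 (chromosome 10, 127667199 to 127701048, plus strand) lies in Nemp1, which encodes a protein of the inner nuclear membrane, and pi-Tbl2.3 (chromosome 5, 135149164 to 135163872, plus strand) in Tbl2, which encodes a protein of the endoplasmic reticulum. pi-Cbl.1 (chromosome 9, 44142978 to 44233502, minus strand) covers Cbl, an E3 ubiquitin ligase of receptor tyrosine kinases, and pi-Asb1.2 (chromosome 1, 91540696 to 91559583, plus strand) Asb1, a SOCS-box protein. pi-Eif2c2.1 (chromosome 15, 73095848 to 73185186, minus strand) covers Ago2, the Argonaute that cuts small-RNA-guided targets, and pi-Zfp382.1 (chromosome 7, 30121923 to 30140747, plus strand) Zfp382, a zinc finger protein of transcription. All positions are on GRCm38.

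Their genotype differences in small RNA ran in both directions. Tmem194 stood at 2915 and 2864 CPM in the Exd2+/+ libraries and 3383 and 3079.7 in Exd2∆, which did not overlap but was not called (adjusted p = 0.192, edgeR's quasi-likelihood test with Benjamini-Hochberg adjustment over 208 loci, as for every adjusted p below). Tbl2 stood at 2459 and 2489 in Exd2+/+ against 2381 and 2514 in Exd2∆, and the groups overlapped. Cbl stood at 2606 and 2599.7 in Exd2+/+ against 3248 and 3407 in Exd2∆. Both Exd2∆ libraries were higher, and Cbl rose, with a log2 fold change of 0.31 and an SE of 0.05 (adjusted p = 0.000564). Zfp382 held 2064 and 1825 in Exd2+/+ against 1186 and 1249.5 in Exd2∆, Eif2c2 1772 and 1676 against 1308 and 1291, and Asb1 1574 and 1586 against 1175 and 1248. At all 3 both Exd2∆ libraries lay below both Exd2+/+ libraries. The log2 fold changes were -0.72 ± 0.07 for Zfp382 (adjusted p = 1.63e-05), -0.45 ± 0.06 for Eif2c2 (adjusted p = 0.000224) and -0.43 ± 0.06 for Asb1 (adjusted p = 0.000134). Zfp382 belongs to a large family of related zinc finger genes, and reads shared with another member would be split between loci or lost, so its counts are less certain.

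Divided by the length of the host gene's exons inside the locus, the order of the wild-type small RNA levels changed in part. Zfp382 led with 846 CPM per kb of exon, before Tbl2 with 415, Tmem194 with 384, Asb1 with 252 and Cbl with 218. Kctd7 at 178 and Cdc42ep3 at 175 came next on this scale, ahead of Klhl11 at 126 and Eif2c2 at 123. The divisor covers annotated host exons only, whereas the counts are those of the whole locus. Zfp382 has 69.1% of its locus in the host gene and ends 5797 bp past it. For Klhl11 these are 64.7% and 5490 bp, so both values may be too high as densities. In CPM, not divided by length, the loci next after the first 6 included Arhgap20, Nr2c2, Wdfy3, Kctd7 and Ddx19b, between 554 and 835. Across the 43 loci the wild-type small RNA level showed almost no relation to locus length (Spearman rho 0.0441). At the 42 loci with a matched host gene the same held for exon length (0.0623) and the length of the 3′ noncoding part (0.0743). These are descriptions over loci that share the same 2 libraries, and the threshold cut the range of the small RNA level.

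Most of the 43 loci gave far fewer piRNA counts per long RNA count than the band-named loci. The ratio of wild-type small to long RNA, each in CPM of its own table, had a median of 0.0843 over the 43 loci (range 0.0147 to 1.07). It was 0.832 over the 94 band-named loci, 0.0379 over the 16 loci left out by name and 0.0107 over the 55 gene-named loci under the threshold, whose low small RNA level the threshold fixed. The ratio exceeded 1 at 1 of the 43 loci, Zfp382, and at 40 of the 94 band-named loci. Mature mRNA of the host gene also counts as long RNA here, so the ratio is not a yield of piRNA per precursor.

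The 3 highest ratios belonged to Zfp382 (1.07), Tbl2 (0.624) and Tmem194 (0.588). In long RNA, Zfp382 stood at 1861 and 1782 CPM in Exd2+/+ and 1678 and 1549.9 in Exd2∆, Tbl2 at 3845 and 4082 against 4891 and 4250.4, and Tmem194 at 4962 and 4871 against 5449 and 4758. The 4 lowest ratios belonged to Cramp1l (0.0147), Dcaf7 (0.0177), Mlec (0.0190) and Fth1 (0.0193), all with long RNA levels above those of Zfp382. Over the 43 loci, small and long RNA levels in Exd2+/+ correlated moderately (Spearman rho 0.429). Over all 114 gene-named loci rho was 0.505 and over the 94 band-named loci 0.794, as descriptions over loci counted in the same libraries. The threshold cut the small RNA range of the 43 to 53.2 to 2889 CPM, against 3.31 to 59999.9 for the band-named loci. These coefficients rest on unlike ranges, so nothing is read from their order.

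**Figure D2:**
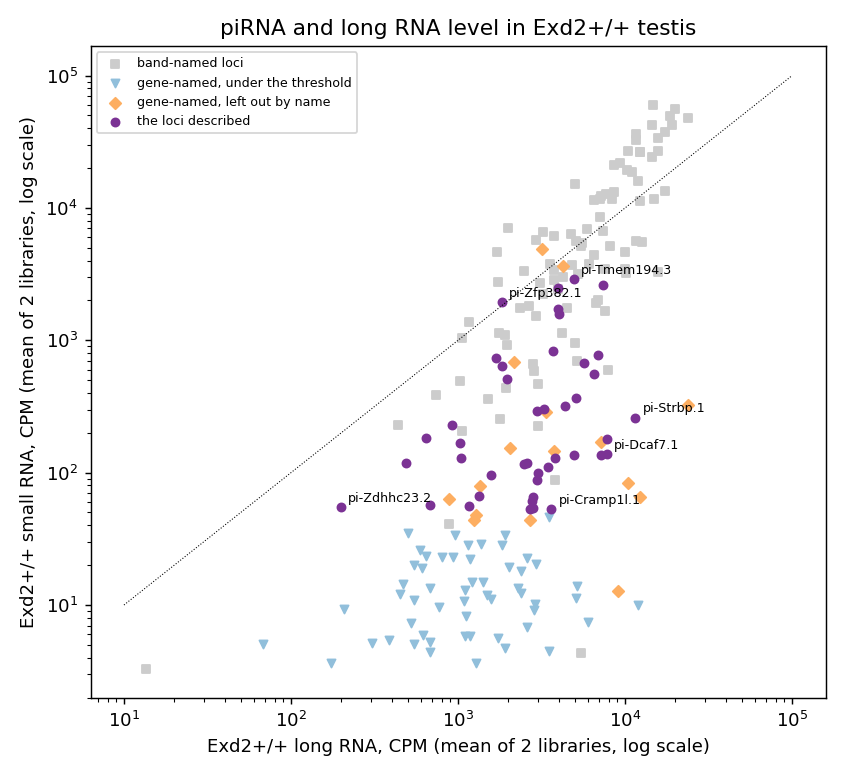
Mean Exd2+/+ small RNA against mean Exd2+/+ long RNA per locus (2 libraries each), both in CPM on log axes; the dotted line marks equal values. The 43 loci lie below the line except Zfp382 (ratio 1.07), with Cramp1l farthest below it (0.0147), while the band-named loci gather around it (median 0.832).

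In small RNA, loci went both ways with the genotype. Of the 43 loci, 16 were called higher and 11 lower in Exd2∆ at an adjusted p below 0.05, and 16 were not called. Over all 208 loci 33.2% were called higher, 31.7% lower and 64.9% either way, so the counts for the 43 loci are close to this background and nothing is read from them. All 43 passed the filter on low counts in both assays. The largest falls exceeded 2-fold at 4 loci, while no rise among the 43 reached it. Larger rises and falls lay among gene-named loci outside the 43, so this contrast depends on the choice of loci. Log2 fold changes ran from -1.68 to 1.86 at gene-named loci under the threshold and from -2.68 to 0.995 at those left out by name. The median log2 fold change was 0.12 over the 43 loci and 0.04 over all 208. Both Exd2∆ libraries lay above both Exd2+/+ libraries at 21 of the 43 loci (45.7% of all 208) and below them at 13 (35.1% of all 208), and the groups overlapped at 9. The Exd2+/+ small RNA libraries serve both the selection and this comparison, and what this adds to the differences of loci near the threshold was not tested.

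**Figure D3:**
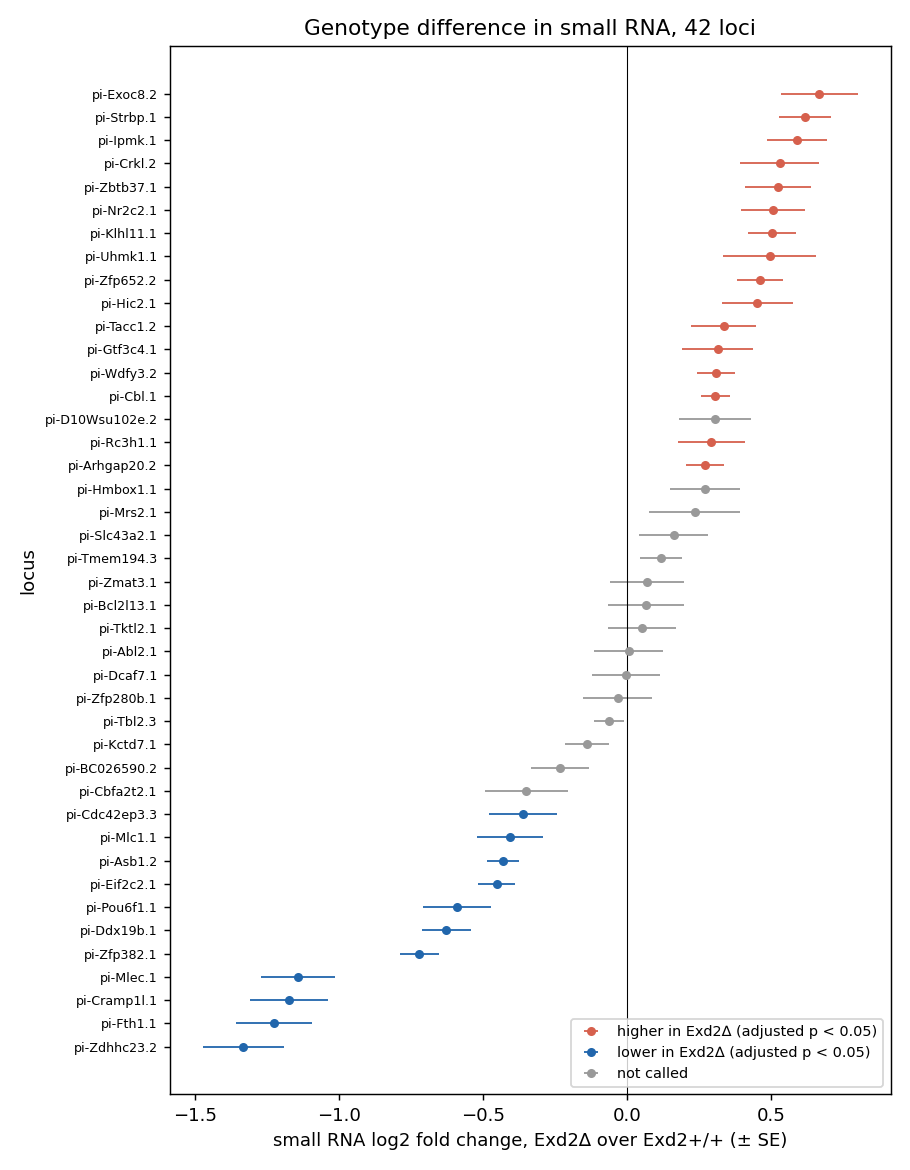
Small RNA log2 fold change of Exd2∆ over Exd2+/+ (edgeR quasi-likelihood fit, bars ± SE, 2 libraries per genotype) for 42 of the 43 loci, ordered by value and coloured by call at an adjusted p below 0.05. The falls of Zdhhc23 (-1.33), Fth1 (-1.23), Cramp1l (-1.17) and Mlec (-1.14) stand apart from the rest, and the largest rise is that of Exoc8 (0.67).

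The 4 falls beyond 2-fold were at loci over genes with no role common to all 4, although Zdhhc23 and Mlec both encode membrane or organelle proteins. pi-Zdhhc23.2 (chromosome 16, 43964765 to 43979755, minus strand) covers Zdhhc23, a palmitoyltransferase, and held 58.2 and 51.7 CPM in Exd2+/+ and 20.2 and 24.9 in Exd2∆ (log2 fold change -1.33 ± 0.14, adjusted p = 3.5e-05). pi-Fth1.1 (chromosome 19, 9982703 to 9985092, plus strand) covers Fth1, the heavy chain of the iron store ferritin, and held 55.9 and 52.0 in Exd2+/+ against 21.8 and 25.9 in Exd2∆ (-1.23 ± 0.13, adjusted p = 4.07e-05). pi-Cramp1l.1 (chromosome 17, 24961291 to 25015587, minus strand) covers the gene of a chromatin protein related to fly Cramped, and held 55.4 and 50.9 in Exd2+/+ against 22.1 and 26.6 in Exd2∆ (-1.17 ± 0.13, adjusted p = 5.83e-05). At each of these 3 loci both Exd2∆ libraries were below 30 CPM, under both Exd2+/+ libraries. pi-Mlec.1 (chromosome 5, 115142981 to 115158216, minus strand) covers Mlec, which encodes the endoplasmic reticulum lectin malectin, and held 139 and 132 in Exd2+/+ against 56.5 and 70.3 in Exd2∆ (-1.14 ± 0.13, adjusted p = 5.83e-05). Its groups did not overlap either. Zdhhc23, Fth1 and Cramp1l are also 3 of the 5 loci nearest the threshold of 50, at wild-type means of 53.2 to 55.0. Fth1 has processed copies elsewhere in the genome, so its counts are less certain.

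The 5 largest rises were smaller. pi-Exoc8.2 (chromosome 8, 124890299 to 124897776, minus strand) lies over Exoc8, a subunit of the exocyst that tethers secretory vesicles, and held 118 and 113 CPM in Exd2+/+ and 163 and 218 in Exd2∆ (log2 fold change 0.67 ± 0.13, adjusted p = 0.00196). pi-Strbp.1 (chromosome 2, 37569876 to 37703370, minus strand) covers Strbp, a spermatid RNA-binding protein, and held 270.2 and 251 against 389 and 439 (0.62 ± 0.09, adjusted p = 0.000288). pi-Ipmk.1 (chromosome 10, 71344912 to 71385881, plus strand) covers Ipmk, an inositol polyphosphate kinase, and held 182 and 183 against 259 and 310.3 (0.59 ± 0.10, adjusted p = 0.000916). In all 3 the Exd2∆ libraries lay clear of the Exd2+/+ libraries, and the Exd2∆ libraries were also farther from each other. pi-Crkl.2 (chromosome 16, 17451966 to 17487432, plus strand), over the adaptor gene Crkl, held 66.2 and 67.8 against 87.2 and 113 (0.53 ± 0.14, adjusted p = 0.0079). pi-Zbtb37.1 (chromosome 1, 161002921 to 161034827, minus strand), over a zinc finger gene, held 135 and 125 against 194 and 191 (0.53 ± 0.11, adjusted p = 0.00302). The calls for Crkl and Zbtb37 were lost without an Exd2+/+ library, Crkl without replicate 1 (adjusted p = 0.0915) or 2 (0.0739) and Zbtb37 without replicate 2 (0.0844).

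The host genes were grouped by role after their values had been seen, to order the description, and the groups were not tested. Their counts are to be read beside the 33.2% called higher and 31.7% called lower over all 208 loci. The largest group, 11 genes of transcription factors, cofactors and chromatin proteins, held 5 loci called higher, 3 lower and 3 not called. Besides Zbtb37, the higher ones were Nr2c2, the orphan nuclear receptor TR4, at 867 and 679.9 CPM in Exd2+/+ and 1023 and 1254 in Exd2∆, the zinc finger genes Zfp652 at 527 and 492 against 734 and 715 and Hic2 at 57.5 and 56.8 against 75.8 and 86.0, and Gtf3c4, a subunit of the RNA polymerase III factor TFIIIC, at 87.6 and 88.8 against 103 and 124. Their log2 fold changes were 0.51, 0.46, 0.45 and 0.32 (adjusted p = 0.00306, 0.000833, 0.0102 and 0.0482). The call of Zfp652 was kept without any 1 small RNA library, whereas that of Gtf3c4 was lost without any of 3 (adjusted p = 0.0919 to 0.336). The Nr2c2 call was lost without either Exd2∆ library (adjusted p = 0.0517 and 0.117) and the Hic2 call without either Exd2+/+ library (adjusted p = 0.136 and 0.154). Besides Zfp382 and Cramp1l, the lower one was Pou6f1, a POU-domain factor, at 289 and 294 against 173 and 228 (-0.59 ± 0.12, adjusted p = 0.00196). In these 5 loci the genotypes did not overlap. Not called were the zinc finger gene Zfp280b at 125 and 112 in Exd2+/+ against 112 and 127 in Exd2∆, the homeobox gene Hmbox1 at 67.1 and 64.9 against 78.4 and 86.0, and the corepressor gene Cbfa2t2 at 63.5 and 59.1 against 43.0 and 56.6. Of these 3, Zfp280b overlapped between genotypes, while Hmbox1 lay above and Cbfa2t2 below in both Exd2∆ libraries.

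Among the 5 loci over genes of RNA-binding proteins and helicases, 2 were higher, 2 lower and 1 not called. Ddx19b, a helicase of mRNA export (chromosome 8, 111003186 to 111031723, minus strand), held 559 and 549 in Exd2+/+ against 338 and 404 in Exd2∆ (log2 fold change -0.63 ± 0.08, adjusted p = 0.000179). Both Exd2∆ libraries were lower. Eif2c2 was the other locus that fell, and Strbp rose, as given above. Rc3h1, which encodes the mRNA decay factor Roquin-1, held 137 and 137 against 177 and 169 (0.29 ± 0.12, adjusted p = 0.049). Its call lay at the threshold and was lost without any of 3 small RNA libraries (adjusted p = 0.0922 to 0.319). Zmat3, a zinc finger RNA-binding protein, held 171 and 163 against 194 and 168, which overlapped. Rc3h1 and Zbtb37 are the closest pair among the 43 loci, facing each other on opposite strands of chromosome 1 with a gap of 27947 bp, and both rose.

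The 6 loci over ubiquitin ligases, their adaptors and related WD-repeat or BTB-domain proteins held 2 that rose, Cbl and the Kelch-like gene Klhl11, and 1 that fell, Asb1. Klhl11 held 301 and 302 in Exd2+/+ against 419 and 465 in Exd2∆ (log2 fold change 0.50 ± 0.08, adjusted p = 0.00067). Kctd7 and Dcaf7 were not called. Kctd7, a BTB-domain protein, held 657 and 628 against 559.6 and 648, and Dcaf7, a WD-repeat scaffold protein, 146 and 129 against 134 and 149. In both the genotypes overlapped.

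Among the 7 loci over kinases, adaptors, regulators of small GTPases and cytoskeletal proteins, 5 rose, 1 fell and 1 was not called. Ipmk and Crkl are given above. Arhgap20, a GTPase-activating protein, held 827 and 843 in Exd2+/+ against 972 and 1113 in Exd2∆ (log2 fold change 0.27 ± 0.07, adjusted p = 0.00575). Leaving out Exd2+/+ replicate 1 ended this call (adjusted p = 0.0661). Uhmk1, a kinase with an RNA-binding-like motif, held 64.4 and 47.1 against 75.8 and 86.8 (0.50, adjusted p = 0.0229), and Tacc1, a coiled-coil protein of the centrosome and spindle, 180.0 and 180.1 against 209 and 262 (0.34, adjusted p = 0.0256). All 5 lay higher in both Exd2∆ libraries. The Uhmk1 call was lost without any of 3 libraries (adjusted p = 0.125 to 0.356), and its log2 fold change was 0.29 without Exd2+/+ replicate 2. The Tacc1 call was also lost without any of 3 (adjusted p = 0.0669 to 0.203), with a log2 fold change of 0.21 without Exd2∆ replicate 2, and with RLE size factors (adjusted p = 0.0606). The locus that fell was Cdc42ep3, an effector of the GTPase Cdc42, at 352 and 386 against 255 and 341 (-0.36, adjusted p = 0.024). Its nearest values, 352 and 341, almost met. Leaving out Exd2∆ replicate 1 ended the call, and the log2 fold change was then -0.22 (adjusted p = 0.138). It was not called either without Exd2+/+ replicate 2 (adjusted p = 0.198) or with the library total as scaling (adjusted p = 0.0696). The tyrosine kinase locus Abl2 held 101 and 97.6 against 96.4 and 109.9, which overlapped.

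The 10 loci over genes of membrane, transport and organelle proteins held 2 that rose, 3 that fell and 5 that were not called. Wdfy3, a large scaffold of selective autophagy, rose from 678 and 681 in Exd2+/+ to 836 and 904 in Exd2∆ (log2 fold change 0.31 ± 0.07, adjusted p = 0.00263), as did Exoc8. Mlc1, a membrane protein known from astrocytes, fell from 327 and 315 to 216 and 286 (-0.41 ± 0.12, adjusted p = 0.0123), as did Zdhhc23 and Mlec. Neither Wdfy3 nor Mlc1 overlapped between genotypes, and the Mlc1 call was lost without either Exd2+/+ library (adjusted p = 0.0878 and 0.0571). Besides Tmem194 and Tbl2, the loci not called were the amino acid transporter gene Slc43a2 at 113 and 125 against 130.4 and 145, the mitochondrial magnesium channel gene Mrs2 at 111 and 108 against 108 and 159.8, and Bcl2l13, a Bcl-2-like protein of mitochondria, at 102 and 90.8 against 93.2 and 116. Slc43a2 lay above in both Exd2∆ libraries and the others overlapped. Of the remaining 3 loci, Tktl2, a transketolase-like gene, held 124 and 132 against 126 and 149, BC026590 237 and 224 against 198 and 207, and D10Wsu102e 54.8 and 52.3 against 68.2 and 68.5. None of these was called (adjusted p = 0.726, 0.0681 and 0.0566), although BC026590 lay below and D10Wsu102e above in both Exd2∆ libraries.

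Long RNA differed less between genotypes than small RNA at these loci. By edgeR's quasi-likelihood test, 0 of the 43 loci were called higher, 0 lower and so 0 either way, where 6.73%, 0.962% and 7.69% of all 208 loci were; the loci left out by name include 4 of those called, which the choice of the 43 removed. At an unadjusted p below 0.05 there were 7 of the 43. DESeq2 called 4, limma-voom 0 and edgeR's exact test 0. The count depended on the Exd2∆ libraries: without long RNA Exd2∆ replicate 1, 4 loci were called and without replicate 2, 21, whereas leaving out either Exd2+/+ library gave 0. With 1 library left in a group, that library is assumed to vary like the other pair. Both Exd2∆ libraries lay above both Exd2+/+ libraries at 11 of the 43 loci (24.0% of all 208) and below them at 14 (38.9% of all 208), and the groups overlapped at 18. That comparison uses CPM, scaled by the library total, whereas the fits also apply TMM factors, so their directions can differ. At Cbl both Exd2∆ libraries lay lower in CPM, while the fitted log2 fold change was 0.0014. Log2 fold changes ran from -0.41 to 0.55 with a median of 0.05, against 0.01 over all 208 loci.

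The extremes of that range were Dcaf7 and D10Wsu102e. Dcaf7 held 7518 and 7996 CPM of long RNA in Exd2+/+ and 12849.8 and 8919 in Exd2∆ (log2 fold change 0.55 ± 0.18, adjusted p = 0.125). D10Wsu102e held 2531 and 2847 against 1736 and 2151 (-0.41 ± 0.13, adjusted p = 0.117). Dcaf7 was higher and D10Wsu102e lower in both Exd2∆ libraries, and for Dcaf7 replicate 1 stood far above replicate 2. Mlec held 7064 and 7206 against 11436 and 8197 (0.52 ± 0.17, adjusted p = 0.122), and Asb1 4232 and 3803 against 6419 and 4410.1 (0.49 ± 0.20, adjusted p = 0.17). Both showed the same high Exd2∆ replicate 1. DESeq2 called Mlec, Dcaf7 and D10Wsu102e (adjusted p = 0.0347 each) and Bcl2l13 (adjusted p = 0.0434), the last at 1561 and 1611 against 2078 and 1804.

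At the other loci with large small RNA differences, long RNA values were close between genotypes or spread within Exd2∆. Zdhhc23, the least abundant of the 43 in long RNA, held 184 and 213 in Exd2+/+ against 182 and 216 in Exd2∆. Cramp1l held 3531 and 3690.1 against 3445 and 3598, and Fth1 2892 and 2712 against 3645 and 2929. Zdhhc23 and Cramp1l overlapped, and Fth1 was slightly higher in both Exd2∆ libraries without a call (adjusted p = 0.23). Strbp, the most abundant in long RNA, held 11446 and 11604 against 9279.6 and 10652, lower in both Exd2∆ libraries without a call (adjusted p = 0.309). Ddx19b held 6656 and 6399 against 7896 and 6752, Exoc8 2559.5 and 2416 against 3262 and 2180.3, and Ipmk 630.4 and 651 against 640.0 and 587. Of these, Exoc8 and Ipmk overlapped. Crkl held 1312 and 1342 against 1268 and 1202 and Zbtb37 1056 and 1032 against 826 and 1056, and the most abundant piRNA loci Cbl and Eif2c2 held 7265 and 7538 against 7094 and 7120.1, and 3794 and 4107 against 3753 and 3903. None of these was called.

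Of the 11 loci called lower in small RNA, 10 had a positive long RNA log2 fold change, the exception being Zfp382, and of the 16 called higher 9 had a positive and 7 a negative one. None of these long RNA differences was called on its own by edgeR's quasi-likelihood test, while DESeq2 called that of Mlec. Scaling by the library total alone gave 8 of the 11, and leaving out a long RNA library gave 6 to 10. Among the 10 the long RNA values ran from 0.01 at Eif2c2 to 0.52 at Mlec. A positive long RNA value was also found at 28 of the 43 loci and at 112 of all 208. Of the 21 loci shorter than the median of the 43, 18 were positive. Across the 43 loci the log2 fold changes in small and long RNA showed a weak negative relation (Spearman rho -0.30), given as a description.

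**Figure D4:**
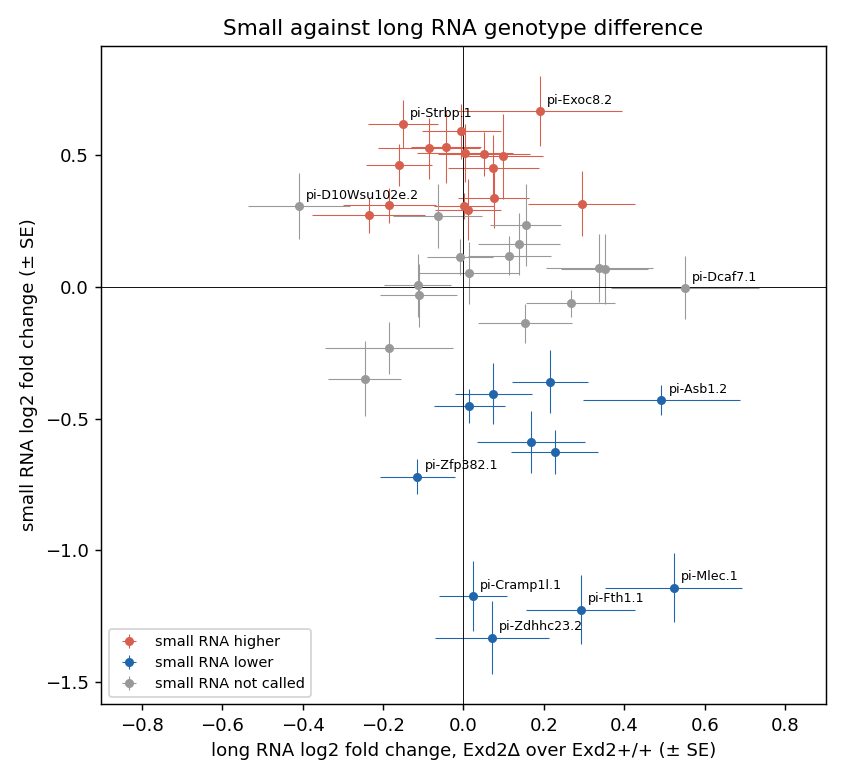
Small RNA against long RNA log2 fold change of Exd2∆ over Exd2+/+ for the 43 loci (edgeR fits, bars ± SE, 2 libraries per genotype and assay), coloured by the small RNA call. The 4 largest falls in small RNA (-1.14 to -1.33) have long RNA values at or above 0, and the long RNA differences all lie between -0.41 and 0.55.

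Whether the genotype difference in small RNA departed from that in long RNA was tested with an assay by genotype term in a joint fit of the 8 libraries. It was called at 22 of the 43 loci, 11 with a more positive and 11 with a more negative difference in small than in long RNA. Over all 208 loci 51.9% were called, 25.5% more positive and 26.4% more negative, which is close to the share among the 43. With the library total alone as scaling, which moved the median over all loci from 0.04 to 0.15, the split was 14 and 8. Of the 22 loci, 21 were also called in small RNA in the same direction. The remaining locus was D10Wsu102e, called in neither assay alone, where small RNA was higher and long RNA lower in both Exd2∆ libraries.

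The 6 loci with the lowest p were Cramp1l, Fth1, Zdhhc23, Mlec, Strbp and Ddx19b. The difference of the log2 fold changes was -1.66 ± 0.22 (SE) for Mlec (adjusted p = 0.000366), -1.52 ± 0.18 for Fth1 (adjusted p = 0.0002), -1.40 ± 0.18 for Zdhhc23 (adjusted p = 0.000349) and -1.20 ± 0.13 for Cramp1l (adjusted p = 0.000127). For Ddx19b it was -0.85 ± 0.15 (adjusted p = 0.00164) and for Strbp, the only positive one, 0.77 ± 0.12 (adjusted p = 0.00084). In the ratio of small to long RNA, each in CPM of its table, Mlec went from 0.0190 in Exd2+/+ to 0.00646 in Exd2∆, Fth1 from 0.0193 to 0.00725, Cramp1l from 0.0147 to 0.00691 and Zdhhc23 from 0.277 to 0.113. Strbp went the other way, from 0.0226 to 0.0415. The ratio was higher in Exd2∆ at 27 of the 43 loci and lower at 16.

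Like the other gene-named loci, nearly all of the 43 lie over protein-coding genes, which their choice by gene name largely sets. The 43 loci lie on 17 chromosomes, 23 on the plus and 20 on the minus strand, with at most 5 on a chromosome (1 and 8). In the GENCODE M21 annotation 40 overlap the gene of their name on the same strand and 2 a gene with that older symbol (Tmem194 for Nemp1, Eif2c2 for Ago2); all 42 hosts are protein coding, and BC026590 was not matched. Of the 43 loci, 27 start within 150 bp of the host's annotated start and 28 end within 150 bp of its end. Of the 55 gene-named loci under the threshold, 54 have a protein-coding host, 36 start and 44 end that close. For the 16 left out by name the counts are 15, 11 and 12. None of the 43 overlaps another of the 208 loci or has one within 10000 bp. Of the 94 band-named loci, 25 have a neighbour that close and 23 a divergent one. Few of the other gene-named loci have one that close either, 3 of the 55 under the threshold and 2 of the 16 left out by name. The loci farthest from their host's annotated start are Tacc1, which begins 52708 bp inside it, and Pou6f1, which begins 19750.0 bp inside.

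Length and strand were compared with the small RNA calls as descriptions, since both were looked at after the calls were known. Locus length ran from 2390 bp (Fth1) to 236974 bp (Wdfy3) with a median of 31907 bp. The 11 loci that fell had a median length of 18888 bp, the 16 that rose 45149.5 bp and the 16 not called 33336 bp. Of the 21 loci shorter than the median of the 43, 5 rose and 9 fell, and of the 22 others 11 rose and 2 fell, the latter being Eif2c2 and Cramp1l. Split at the same length, the 113 shorter of all 208 loci held 32.7% called higher and 40.7% lower, and the 95 others 33.7% and 21.1%. The median 3′ noncoding length was 3559 bases at the loci that fell, 4820.0 at those that rose and 5102 at those not called. On the plus strand 7 of 23 loci rose and 3 fell, and on the minus strand 9 of 20 rose and 8 fell. Over all 208 loci 33.0% rose and 31.0% fell on the plus strand, and 33.3% and 32.4% on the minus strand. The wild-type ratio of small to long RNA hardly set falls and rises apart, with medians of 0.0849 for the loci that fell and 0.0880 for those that rose. Its median was 0.0535 for the loci not called.

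The authors' deposited table gives its own comparison, labelled edgeR, which called 30 of the 43 loci in small RNA and 0 in long RNA at an adjusted p below 0.05. The limma-voom fit here gave the same counts, 30 and 0. At Asb1 the long RNA log2 fold change was 0.4224 as deposited, 0.4223 by limma-voom and 0.4921 by the quasi-likelihood fit. For Zfp382 in small RNA these values were -0.7153, -0.7153 and -0.7209. All 27 loci called here are among the 30 in the authors' deposited table. The 3 others are BC026590, Cbfa2t2 and D10Wsu102e, whose adjusted p here were 0.0681, 0.0569 and 0.0566. The log2 fold changes of the authors' deposited table differed from those computed here by at most 0.02 in small RNA and 0.07 in long RNA.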

How the data were processed

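Small RNA and long RNA of adult mouse testis were each measured in 2 Exd2∆ and 2 Exd2+/+ libraries. As given in the labels' protocols, small RNA was gel-purified out of 10 µg of total RNA, rRNA was depleted from 1 µg for long RNA, and single-end reads had 50 nt. The values the authors deposited are estimated counts at 208 piRNA loci in each library, not scaled to library size and not whole, since all are multiples of 1/2520. Per the file headers, the deposited tables also hold the authors' own log2 fold change and their adjusted p-value, both labelled edgeR. The submitters' processing notes name cutadapt, STAR, edgeR and GRCm38. Tool versions, how reads were counted, on which strand, and what was done with reads of several alignments: not given in the sources used here. Counts of genes with near copies, and of overlapping or antisense transcripts, are less certain for that reason.

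After rounding, the counts were tested by edgeR 4.0.16 under R 4.3.3 (filterByExpr, TMM, glmQLFit with the legacy option, glmQLFTest, genotype as the only term), per assay over all 208 loci. The interaction of assay and genotype used all 8 libraries. Benjamini-Hochberg adjustment covered the 208 loci, and calls required an adjusted p below 0.05. Each SE was derived from the test, as the absolute log2 fold change divided by the square root of its quasi-likelihood F statistic. Levels are CPM, scaled to 1000000 over the 208 loci. The replicate numbers are not said to mark shared animals, and with 2 groups of 2 the samples were not taken as paired. Replicates are called biological, but no animal is named. The p-values set each genotype difference against the spread between these samples, which the fit moderates across loci. Tables were made with Python 3.11.15 and pandas 2.3.3, alternatives with DESeq2 1.42.0 and limma 3.58.1.

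The loci, gene groups and tests were chosen with earlier results of these data known. 1 of the 43 loci enters all counts and fits but is not reported here by name. The rule for named loci names every locus, and gives full values for the 6 most abundant in Exd2+/+ small RNA, the 5 largest rises and 5 largest falls in small RNA, any locus called in long RNA, the 4 highest and 4 lowest ratios of small to long RNA, and the 6 lowest interaction p-values; the printed promoter windows other than those of Exoc8 and Zdhhc23 were chosen after values were seen. The fits were tested on simulated counts with 60 of 208 loci changed, in 20 simulations. Of loci changed by 1.5-fold, 96.2% were recovered in small RNA, 85.2% in long RNA and 65.5% by the interaction. At 1.25-fold the recovered parts were 62.5%, 30% and 19.2%. Of unchanged loci 1.42%, 1.28% and 0.912% were called. The counts of calls in small and long RNA therefore rest on unlike recovery of small differences.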

Additional observations from a re-analysis of the deposited data

Results flagged for a closer look

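At 6 of the 43 loci the test of the assay by genotype interaction itself, in edgeR's quasi-likelihood fit of all 8 libraries, gave the lowest p-values. The genotype difference in small RNA minus that in long RNA was -1.66 for Mlec, -1.52 for Fth1, -1.40 for Zdhhc23, -1.20 for Cramp1l and -0.85 for Ddx19b on the log2 scale, and 0.77 for Strbp. At the 5 loci with a negative difference small RNA fell, and at Strbp it rose. Long RNA was uncalled at all 6 by edgeR's quasi-likelihood test with genotype as the only term. That of Mlec was called by DESeq2 and with the replicate number as a block. For Mlec the long RNA value rests in part on Exd2∆ replicate 1, and its long RNA log2 fold change was 0.25 without that library and 0.76 without replicate 2. Any part of the spread between the Exd2∆ long RNA libraries in these differences was not tested.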

How the results depend on the processing

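Of the 27 loci called in small RNA, 20 kept the call under RLE or library-total scaling, no filter, a minimum of 100 counts in 2 libraries, DESeq2, limma-voom, edgeR's exact test, its default quasi-likelihood option and the replicate block. Without each small RNA library in turn, 16 kept it, and 0 changed sign under any of these settings. The 16 that kept it throughout are 7 of the 16 higher and 9 of the 11 lower loci. The number called higher, 16, ranged from 9 to 14 with a small RNA library left out, being 10 without Exd2+/+ replicate 1 and 9 without Exd2+/+ replicate 2.

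The number called in long RNA, 0, became 4 with DESeq2 (3 higher, 1 lower). With the replicate number as a block it became 5 (4 higher, 1 lower): Dcaf7 (adjusted p = 0.000278), Mlec (0.000458), Asb1 (0.00137), D10Wsu102e (0.0114) and Bcl2l13 (0.0449). In small RNA the block gave 21 and in the interaction 22. Leaving out a long RNA library gave 0 to 21 (0 to 14 higher, 0 to 7 lower). The number called in the interaction, 22, ranged from 14 to 27 with a library left out, and those more positive in small RNA, 11, from 6 to 12. With no residual spread within a group of 1, these fits borrow it from the other group. The cause of these shifts was not tested. Same-numbered libraries deviated together with r = 0.0393 in small and 0.342 in long RNA. The difference in the share of counts held by the 43 loci, 0.0776 percentage points in small and 0.504 in long RNA, was 0.00512 and 1.15 of the TMM-scaled total. The lowest count per locus and library was 573 for piRNA and 175 for long RNA, and the part of depth in the calls was not tested.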
